A study of Homo sapiens with 36 samples.

Results

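PTPRD, PTPRF and PTPRS encode the type IIa receptor protein tyrosine phosphatases, and the expression of these 3 genes was followed in A549 cells during and after exposure to IL-1β. They were found by symbol among the 63677 Ensembl genes of the count tables, and all 3 had enough counts to be among the 19180 genes tested. A gene was called differentially expressed at an adjusted p under 0.05 together with a fold change over 2, referred to here as both thresholds, with p-values from the quasi-likelihood test of edgeR adjusted after Benjamini and Hochberg. PTPRD was selected from these same measurements. Of the 55 genes (0.287% of those tested) past both thresholds in 1 direction at all 6 time points, 27 were higher with IL-1β, and PTPRD had the largest log2 fold change of the 27 at the last time point, 3.53 against 2.81 for GBP1, the next gene. The comparisons of PTPRD between exposed and untreated cells are for that reason given as a description with no test. PTPRF and PTPRS were included as its paralogs, whatever their values.

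A549 is an established human lung adenocarcinoma cell line, and the study asked whether the changes that a long exposure to the cytokine IL-1β brings about in these cells last once the cytokine is removed. Poly(A) RNA was sequenced from cells grown with 1 ng/ml IL-1β for 6, 15 or 21 days, and from cells that had 21 days of IL-1β and were then cultured without it for another 6, 15 or 30 days. At each of these 6 time points untreated A549 cells were collected as controls, and the labels give 3 biological replicates for each of the 12 groups, 36 libraries in all. All values come from this single cell line kept in culture with regular passaging.

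Type IIa receptor phosphatases span the cell membrane, with immunoglobulin and fibronectin type III domains outside the cell and tandem phosphatase domains inside it, of which the one nearer the membrane is the active one. They bind heparan and chondroitin sulfate proteoglycans and membrane proteins such as the neurotrophin receptor TrkC and members of the IL-1 receptor family, and are best known for organising synapses and cell adhesion. PTPRD is also known as a gene lost or mutated in lung cancer and other tumours, and STAT3 is among the substrates described for its product.

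Libraries held 9116032 to 23570026 counts on genes (median 15902700). In 11 of them, 6 untreated and 5 exposed, the mitochondrial share of the counts was 11.8% to 24.6%, while it was 5.61% to 7.75% in the other 25, and 8 of the 11 carry replicate number 2. Values without these 11 libraries stand beside the results they touch. The markers of the line were mostly as known for A549. The keratin genes KRT8 and KRT18 had medians of 2183 and 1096 CPM (counts relative to the TMM-scaled library size), and CDKN2A, which is deleted in A549, had no count in all 36 libraries. The epithelial markers KRT19 and EPCAM were nearly absent, with medians of 0.0522 and 0.677 CPM. Of the markers of other cell types, the neuronal gene SNAP25 had a median of 14.6 CPM and RBFOX3 1.84 CPM, and the fibroblast, endothelial and leukocyte markers had medians of 0.647 CPM or less.

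RefSeq places the starts of transcription of the 3 genes as follows, and the bases before them are shown because they are the regulatory sequence nearest to the genes whose RNA was counted. In the RefSeq table, on build GRCh38.p14, PTPRD has 3 starts, PTPRF has 1 and PTPRS has 1. The 250 bases before each start were searched on both strands for the NF-κB consensus, for the AP-1 site TGANTCA and for the STAT site TTCNNNGAA, which are bound by transcription factors active downstream of IL-1 or IL-6. Capitals mark the only match, an NF-κB consensus site 152 to 143 bases before the furthest upstream start of PTPRD, which overlaps no other motif searched. It is followed by the second start of PTPRD, which lies inside the gene, and by the starts of both paralogs.
PTPRD, first start, chr9:10613003-10613252, minus strand: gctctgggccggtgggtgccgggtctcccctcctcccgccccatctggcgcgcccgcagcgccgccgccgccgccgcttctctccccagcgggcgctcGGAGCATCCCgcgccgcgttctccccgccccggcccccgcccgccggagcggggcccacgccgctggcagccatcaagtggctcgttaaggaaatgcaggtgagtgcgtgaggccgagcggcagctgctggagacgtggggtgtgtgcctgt
PTPRD, second start, chr9:8779392-8779641, minus strand: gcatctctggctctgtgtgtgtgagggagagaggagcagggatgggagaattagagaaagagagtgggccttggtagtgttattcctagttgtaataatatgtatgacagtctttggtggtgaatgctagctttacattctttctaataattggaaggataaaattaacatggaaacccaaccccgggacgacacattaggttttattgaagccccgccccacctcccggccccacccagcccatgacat
PTPRF, chr1:43530633-43530882, plus strand: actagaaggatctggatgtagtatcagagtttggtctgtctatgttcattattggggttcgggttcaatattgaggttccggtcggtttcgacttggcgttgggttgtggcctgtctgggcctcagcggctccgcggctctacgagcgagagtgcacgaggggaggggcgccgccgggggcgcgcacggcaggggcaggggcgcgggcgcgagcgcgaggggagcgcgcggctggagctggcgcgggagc
PTPRS, chr19:5340813-5341062, minus strand: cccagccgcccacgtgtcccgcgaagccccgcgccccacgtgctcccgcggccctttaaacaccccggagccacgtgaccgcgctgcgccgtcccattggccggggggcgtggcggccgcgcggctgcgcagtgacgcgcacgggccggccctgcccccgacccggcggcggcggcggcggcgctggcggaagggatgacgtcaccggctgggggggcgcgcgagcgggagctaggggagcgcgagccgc
Of 35116 windows of the same length in the RefSeq table, 9.96% held the NF-κB consensus, 6.57% the AP-1 site and 6.57% the STAT site. The windows also differed in CpG dinucleotides. The first start of PTPRD had 32, PTPRF 28 and PTPRS 44, against a median of 11 over all windows, whereas the second and the third start of PTPRD had 4 each. A match of letters is not evidence of binding. Gene counts do not tell which of the 3 starts of PTPRD was in use.

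PTPRD (ENSG00000153707) lies on the minus strand of chromosome 9 from 8314246 to 10613002 of GRCh37, the build of the counts. It was close to the limit of detection in untreated cells and clearly detected in every library of cells that had received IL-1β. The 18 untreated libraries held 1 to 10 counts of PTPRD each, or 0.0649 to 0.711 CPM, and the 18 libraries of exposed cells held 33 to 244 counts, or 2.41 to 11.8 CPM. The ranges did not overlap at any of the 6 time points, which follows closely from the choice of PTPRD for its calls at all 6. At days 6 and 21 of exposure and day 6 after withdrawal, 10.6%, 13.8% and 5.51% of genes tested were separate with exposed cells higher. In these bulk libraries, more cells that express PTPRD and more RNA per cell cannot be told apart.

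At day 6 of IL-1β the 3 replicates had 2.76, 2.41 and 3.21 CPM of PTPRD, against 0.458, 0.348 and 0.355 CPM in the untreated cells. At day 15 they had 7.71, 8.07 and 10.97 CPM against 0.591, 0.433 and 0.148 CPM. At day 21 they had 11.8, 10.1 and 10.0 CPM against 0.171, 0.422 and 0.279 CPM. The exposed level was thus lowest at day 6, and the libraries of days 15 and 21 overlapped each other while lying above all those of day 6. On the log2 scale the fold changes came to 2.83, 4.51 and 5.17 for days 6, 15 and 21 (standard errors, SE, of 0.44, 0.41 and 0.43). The last is a 36.02-fold difference, from 0.291 ± 0.126 to 10.7 ± 1.03 CPM (SD, n = 3 each). With only 17 counts in the 3 untreated libraries together, the ratio of pooled counts at day 21 was 37.1 with a 95% interval of 22.9 to 64.0, which covers counting error only.

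**Figure D1:**
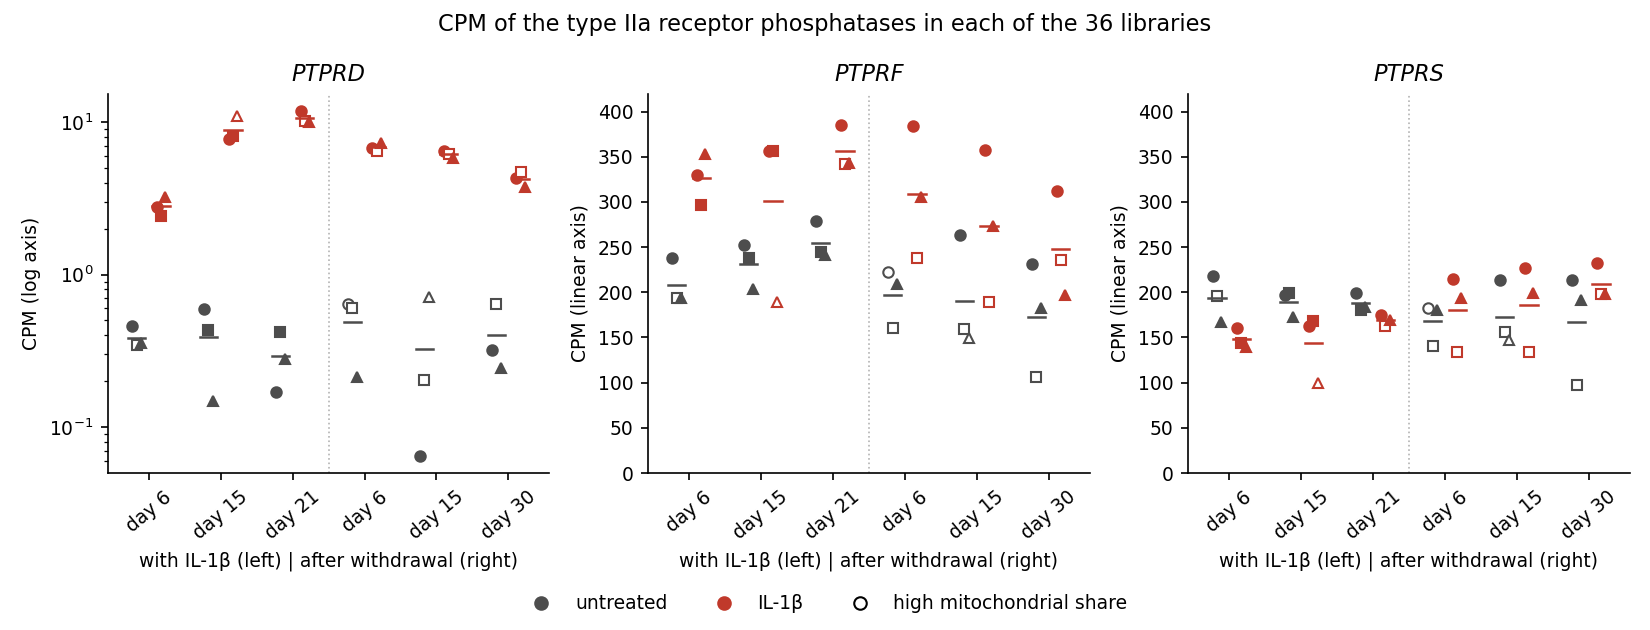
CPM of PTPRD (log axis), PTPRF and PTPRS (linear axes) in each library, by day with IL-1β or day after its withdrawal. Circles, squares and triangles are replicates 1, 2 and 3, short lines are group means, and open symbols are libraries with 11.8% to 24.6% of their counts on mitochondrial genes. For PTPRD the exposed libraries (2.41 to 11.8 CPM) lie above the untreated ones (0.0649 to 0.711 CPM) at every time point, which was not so for PTPRF and PTPRS.

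After withdrawal the level of PTPRD in exposed cells was lower at each later collection and still above that of untreated cells at the last. At 6 days after IL-1β was removed, the replicates had 6.72, 6.49 and 7.30 CPM, against 0.645, 0.605 and 0.215 CPM in the untreated cells. After 15 days they had 6.41, 6.18 and 5.82 CPM against 0.0649, 0.204 and 0.711 CPM, and after 30 days 4.28, 4.68 and 3.74 CPM against 0.323, 0.643 and 0.246 CPM. In the exposed cells no library of day 30 reached the level of any library of day 15 or day 6 after withdrawal, and the lowest of day 30 was still above the highest of day 6 of exposure. Those of days 6 and 15 after withdrawal were next to each other, with 6.49 CPM as the lowest of the former and 6.41 CPM as the highest of the latter.

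The log2 fold changes were 3.96, 4.34 and 3.53 at days 6, 15 and 30 after withdrawal (SEs 0.43, 0.49 and 0.44). By this measure PTPRD kept 76.5%, 83.8% and 68.3% of its day 21 log2 fold change. The level itself was further from that of day 21 than these shares show, at 64.6% ± 8.08, 57.8% ± 3.51 and 39.9% ± 5.57 (SD, n = 3) of that of day 21. These percentages compare libraries of the same replicate number, which may not be linked between days, so their SDs depend on that pairing. The log scale compresses the difference, and measured as the excess over 1 of the fold change, 41.5%, 54.8% and 30.2% were left. The untreated libraries decide part of the order. At day 15 after withdrawal 2 of them had 1 and 2 counts, and the pooled ratio of 21.4 had a 95% counting interval of 11.5 to 45.0, so that the higher share kept at day 15 than at day 6 after withdrawal is within counting error. Single libraries also moved day 15, where the log2 fold change was 3.67 without replicate 1 and 5.60 without replicate 3, and the share kept 73.1% and 108%.

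Of the 421 genes past both thresholds and higher at day 21, 143, 60 and 73 kept a larger share of their log2 fold change than PTPRD at days 6, 15 and 30 after withdrawal, and the median share kept by the 421 genes was 63.1%, 46.9% and 35.5%. PTPRD had the 12th largest log2 fold change of all genes tested at day 21 and the 4th largest at day 30 after withdrawal. To be selected it had to be past both thresholds at every time after withdrawal, which was not asked of the 421 genes. Its shares above their medians thus follow in part from the selection, as does its rank at day 30.

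The median untreated level of PTPRD differed with the mitochondrial share, while the ranges overlapped. In the 6 untreated libraries of high share PTPRD had a median of 0.624 CPM (range 0.204 to 0.711), against 0.301 CPM (range 0.0649 to 0.591) in the other 12. Most of the 6 belong to the time points after withdrawal, so share and time of collection cannot be told apart. Without the 11 libraries, the log2 fold changes after withdrawal came to 5.002, 6.42 and 3.79 for days 6, 15 and 30, where days 6 and 15 rest on a single untreated library of 5 counts and of 1 count. The share of the day 21 value that was kept was then 95.6%, 123% and 72.5%. With all libraries kept and the high share as a covariate, the log2 fold changes were 4.08, 4.44 and 3.53 and the shares 80.0%, 86.9% and 69.2%. The group ranges of PTPRD did not overlap with all libraries kept, and leaving libraries out cannot make them overlap. What part the mitochondrial share has in these differences was not tested.

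**Figure D2:**
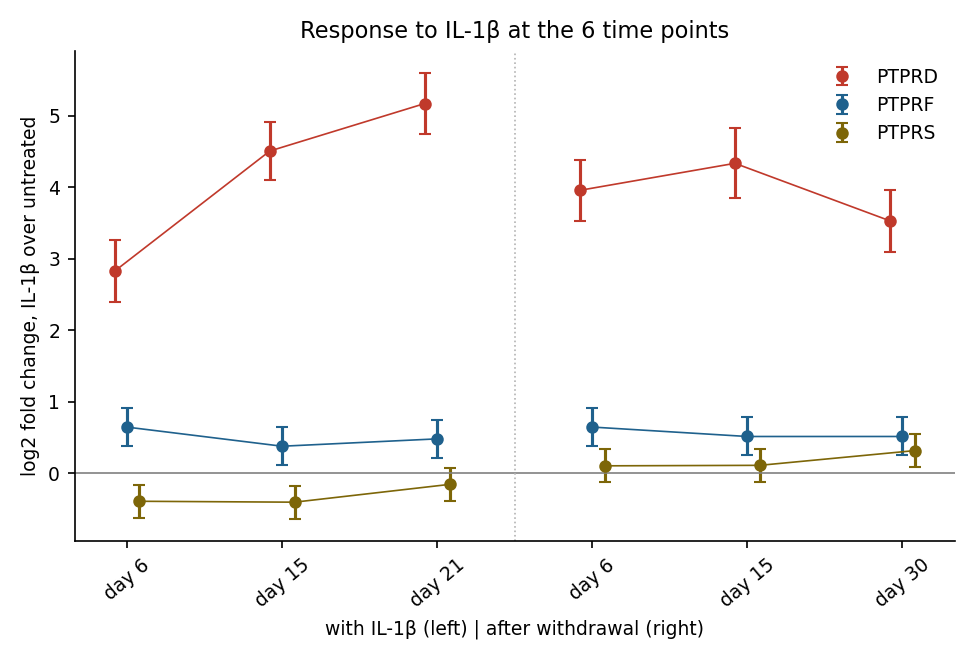
Log2 fold change of IL-1β over untreated cells for the 3 genes at each time point, with standard errors from edgeR's model of all 36 libraries. PTPRD runs from 2.83 to 5.17 during exposure and is at 3.96, 4.34 and 3.53 at days 6, 15 and 30 after withdrawal. PTPRF lies between 0.38 and 0.65 and PTPRS between -0.40 and 0.32.

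PTPRF (ENSG00000142949), which encodes the phosphatase LAR, lies on the plus strand of chromosome 1 from 43990858 to 44089337 of GRCh37. PTPRS (ENSG00000105426), which encodes the phosphatase σ, lies on the minus strand of chromosome 19 from 5158506 to 5340823. Both were abundant in A549 cells with and without IL-1β. Per kb of exon, which allows levels to be compared between genes, untreated cells had on average 19.5 CPM of PTPRF, 15.2 CPM of PTPRS and 0.0332 CPM of PTPRD. PTPRF was higher than PTPRS per kb in 36 of 36 libraries, by 1.05 to 2.80 times. This order depends in part on the exon lengths used, 10712 bases for PTPRF and 11794 for PTPRS. In CPM, PTPRS was the higher in some untreated libraries, such as replicate 3 of day 30 after withdrawal (192 against 183 CPM). Among the 20 receptor-type phosphatase genes compared, the level per kb placed PTPRF 2nd, PTPRS 5th and PTPRD 16th in untreated cells. At day 21 of IL-1β it placed PTPRF 2nd, PTPRS 4th and PTPRD 10th. At that time PTPRD reached 0.929 CPM per kb and made up 1.91% ± 0.0757 (SD, n = 3) of the summed level of the 3 genes per kb. The largest group mean was 2.13% ± 1.21 (SD, n = 3), at day 15, where replicate 3 has a high mitochondrial share. That library had 17.7 CPM per kb of PTPRF, against 33.3 in replicates 1 and 2. In the untreated groups PTPRD made up 0.0650% to 0.148%.

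At day 21 the replicates held 385, 342 and 343 CPM of PTPRF when exposed and 279, 244 and 242 CPM when untreated. At day 30 after withdrawal they had 312, 235 and 197 CPM against 231, 106 and 183 CPM. The groups were separate at days 6 and 21 of exposure and at day 6 after withdrawal, a separation that 10.6%, 13.8% and 5.51% of all genes tested had in the same direction, and they overlapped at the other 3 time points. The log2 fold changes of PTPRF were 0.65, 0.38 and 0.48 at days 6, 15 and 21 of exposure and 0.65, 0.52 and 0.52 at days 6, 15 and 30 after withdrawal (SEs 0.27). PTPRF was past both thresholds at 0 of 6 time points by edgeR's quasi-likelihood test, where 2.77%, 4.24%, 4.26%, 1.8%, 0.954% and 0.897% of genes were called, with adjusted p between 0.256 and 0.638. Its unadjusted p was under 0.05 at 2 of 6 time points, and DESeq2 gave an adjusted p under 0.05 at 0 of 6.

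Averaged over the 6 time points, a comparison added after the values were seen, the log2 fold change of PTPRF was 0.53 (SE 0.11, adjusted p = 0.000467, edgeR), a 1.45-fold increase. In that comparison 9.1% of genes were higher at an adjusted p under 0.05. It takes the libraries of different days as independent, while the same culture may have been collected on several days. The increase of PTPRF at day 30 after withdrawal was 0.03 apart from its value on day 21 (95% interval -0.74 to 0.81, adjusted p = 0.992, same test). In this comparison 0.73% of genes had an adjusted p under 0.05, and the interval is wide enough to hold a loss of the whole response.

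PTPRS had 174, 163 and 170 CPM in the exposed replicates of day 21 and 199, 181 and 184 CPM in the untreated ones. At day 30 after withdrawal it had 232, 198 and 198 CPM against 213, 97.9 and 192 CPM. With IL-1β present the exposed libraries were below the untreated ones at all 3 time points, as were 11.2%, 13.9% and 15.2% of genes at days 6, 15 and 21, and after withdrawal the groups overlapped at each time. On the log2 scale PTPRS differed by -0.39, -0.40 and -0.15 under IL-1β and by 0.11, 0.11 and 0.32 once it was gone (SEs 0.23), where the sign at days 6 and 15 after withdrawal turned with the libraries or the covariate used. PTPRS was past both thresholds at 0 of 6 time points by edgeR's quasi-likelihood test, with adjusted p of 0.390 or more, an unadjusted p under 0.05 at 0 of 6 and an adjusted p under 0.05 by DESeq2 at 0 of 6. Averaged over the 6 time points the value was -0.07 (95% interval -0.26 to 0.13, adjusted p = 0.745, edgeR).

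The levels of both paralogs also differed with the mitochondrial share of a library, which in untreated cells is tied to the time of collection. In untreated cells PTPRF ran from 106 to 223 CPM in the 6 libraries of high share and from 183 to 279 CPM in the other 12, and PTPRS from 97.9 to 195 CPM and from 167 to 218 CPM. Without the 11 libraries, PTPRF reached adjusted p-values of 0.0299, 0.0179 and 0.0466 for exposures of 6, 15 and 21 days, with log2 fold changes of 0.62, 0.63 and 0.53 that are under the fold threshold by edgeR.

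The ratio of PTPRF to PTPRS within a library is free of the scaling between libraries, and it was compared after the values above had been seen. In untreated cells PTPRF per kb was 1.19 ± 0.0911, 1.34 ± 0.0606 and 1.49 ± 0.0490 times PTPRS at days 6, 15 and 21 (SD, n = 3 each). With IL-1β it was 2.44 ± 0.308, 2.28 ± 0.164 and 2.32 ± 0.102 times. No exposed library overlapped the untreated ones of its day. The mean log2 difference over the 3 days was 0.81, or 1.76-fold (exact two-sided permutation of treatment within each day, p = 0.00025, the smallest that the 8000 arrangements allow, and 0.0005 adjusted over the 2 such tests made). Both tests take the libraries of different days as independent. The labels do not tell whether the same culture was collected on several days, in which case these p-values would be too small.

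After withdrawal the ratio in exposed cells was 1.89 ± 0.128, 1.60 ± 0.120 and 1.29 ± 0.193 at days 6, 15 and 30, against 1.29 ± 0.0444, 1.202 ± 0.133 and 1.14 ± 0.0814 in untreated cells (SD, n = 3 each). The groups were still separate at days 6 and 15 and overlapped at day 30, where 1 exposed library had 1.10 and the highest untreated library 1.19. The mean log2 difference over these 3 days was 0.38, or 1.30-fold (exact two-sided permutation within each day, p = 0.00075, also 0.00075 when adjusted over the 2 tests). Without the 11 libraries of high mitochondrial share it was 0.81 during exposure (exact permutation, p = 0.001) and 0.33 after withdrawal. The latter is given with no test, because days 6 and 15 after withdrawal then kept 1 untreated library each. In terms of the 3 genes together, PTPRF made up 68.6% ± 0.853 of the summed level per kb at day 21 of IL-1β and PTPRS 29.5% ± 0.928, against 59.9% ± 0.795 and 40.1% ± 0.778 in untreated cells (SD, n = 3 each). At day 30 after withdrawal PTPRF made up 55.7% ± 3.74 in exposed and 53.2% ± 1.77 in untreated cells.

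**Figure D3:**
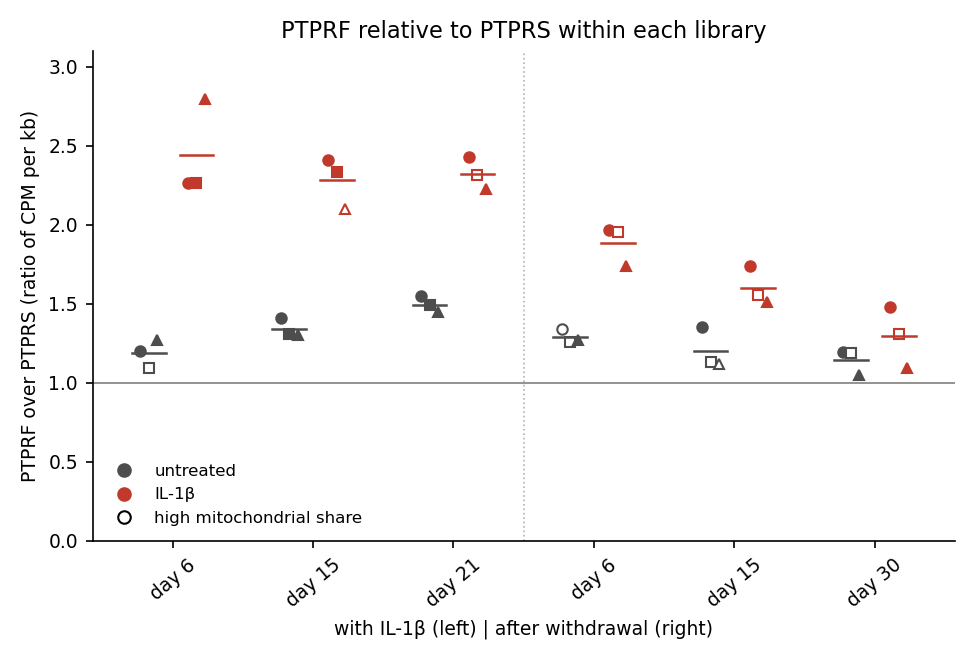
Ratio of PTPRF to PTPRS, as CPM per kb of exon, in each library by day with IL-1β or day after its withdrawal. Symbols and lines are as in the plot of CPM by library. The exposed libraries lie between 2.10 and 2.80 with IL-1β and between 1.10 and 1.97 after it, and the groups overlap only at day 30 after withdrawal.

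The untreated cells were also compared with each other over their time in culture. The choice of PTPRD used these libraries, so its value is given with no test. Between the collections of day 6 of exposure and day 30 after withdrawal, the untreated libraries differed by -0.11 for PTPRD, by -0.27 for PTPRF (95% interval -0.82 to 0.28) and by -0.21 for PTPRS (-0.68 to 0.26) on the log2 scale, with an adjusted p of 1.000 for both paralogs (edgeR). In this comparison 2 genes (0.0104%) were past both thresholds. A test for any difference among the 6 untreated groups, which 0.00521% of genes passed, gave adjusted p of 0.981 for PTPRF and 0.982 for PTPRS.

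The products of these genes act through ligands, partners and substrates, and 111 genes in 7 lists were followed with them, of which 88 could be tested. Of the 88, 9 (10.2%) were past both thresholds at any of the time points, against 6.32% of all genes tested. The lists were drawn up with earlier results of these data known. IL6, FGA, FGB and FGG, which are among the 9, had been seen in them, so the difference in share is no measure of enrichment. The lists mix roles, and the 9 genes were unevenly spread over them. The plot of listed genes at day 21 and day 30 shows them beside PTPRD.

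Of the other receptor phosphatases, 13 of 17 were tested and 1 was called. PTPRO, a receptor phosphatase of podocytes and neurons, rose at days 6 and 15 of exposure by 1.53 and 1.52 on the log2 scale (adjusted p = 0.000123 and 8.55e-05, edgeR), with 0.80 for day 21 and -0.21 for day 30 after withdrawal. PTPRJ, the member with the most CPM of those tested, had 234 ± 22.4 against 174 ± 6.81 CPM at day 21 (SD, n = 3 each) and log2 fold changes of 0.43 then and 0.72 at day 30 after withdrawal (adjusted p = 0.109 and 0.0112, edgeR), the latter a 1.65-fold increase that is under the fold threshold. The median over the 13 was 0.25 at day 21, against -0.01 for all genes tested. Of the non-receptor phosphatases, 13 of 17 were tested and 0 were called. PTPN11, which encodes SHP2 and has the highest level of them, had log2 fold changes of 0.25 at day 21 and -0.12 at day 30 after withdrawal.

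Among the membrane proteins that bind the extracellular part, 7 of 14 were tested and 1 was called. NTRK3, which encodes TrkC, a ligand of PTPRS in neurons, fell at all 6 time points, as did 0.146% of the genes tested. Exposed cells had 3.40 ± 1.64 CPM and untreated cells 36.4 ± 1.13 CPM at day 21, and 16.2 ± 7.26 against 73.0 ± 19.0 CPM at day 30 after withdrawal (SD, n = 3 each). The log2 fold changes were -3.39 (SE 0.47, adjusted p = 2.31e-05) and -2.17 (SE 0.45, adjusted p = 0.0124, edgeR). IL1RAP, the accessory protein of the IL-1 receptor and a ligand of PTPRD, is named here because it joins both systems and was chosen after its values were seen. It differed by 0.84, 0.47 and -0.22 on the log2 scale at days 6 and 21 of exposure and 30 days after withdrawal, and it was not past both thresholds at any time point.

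Of the proteoglycans, 13 of 18 were tested and 1 was called. SDC4, which encodes the heparan sulfate proteoglycan syndecan-4, rose at the 3 time points of exposure and at day 6 after withdrawal. At day 21 it had 141 ± 24.5 against 43.6 ± 3.24 CPM (SD, n = 3 each), or 1.70 on the log2 scale (SE 0.33, adjusted p = 0.00107, edgeR), and at day 30 after withdrawal the value was 0.95 (adjusted p = 0.241, same test). AGRN, the most abundant proteoglycan of the list, varied widely among replicates and had log2 fold changes of -0.11 at day 21 and 0.14 at day 30 after withdrawal (SEs 0.69).

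Inside the cell, 11 of 13 genes of cytoplasmic partners, among them the liprins, were tested and 0 were called. TRIO, whose product binds LAR, had the most CPM of them and came nearest. It had 475 ± 35.7 against 255 ± 20.2 CPM at day 21 (SD, n = 3 each), a 1.86-fold increase (adjusted p = 0.000357, edgeR) that is under the fold threshold, and 30 days after withdrawal its value was 0.48 (adjusted p = 0.210, same test). Of the genes of substrates 8 of 9 were tested and 0 were called. EZR, the most abundant, had log2 fold changes of -0.38 and -0.18 at the same times.

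The pathway of IL-6 and STAT3 had all 23 genes tested, of which 6 were called at 1 or more time points, partly in opposite directions. At day 21, 1 was higher and 4 were lower, as were 2.19% and 2.06% of all genes tested, and at day 30 after withdrawal 1 was higher and 2 were lower, against 0.433% and 0.464%. IL6, which encodes the cytokine, rose at all 6 time points, with 150 ± 28.2 against 3.24 ± 1.26 CPM at day 21 and 16.9 ± 8.59 against 2.77 ± 2.26 CPM at day 30 after withdrawal (SD, n = 3 each). The fibrinogen chains FGA and FGB, acute-phase genes that STAT3 is known to activate in liver cells, fell at all 6 time points. FGA had log2 fold changes of -4.72 at day 21 and -1.78 at day 30 after withdrawal, and FGB was lower by at least 56.4-fold at day 21, with at most 3 counts in each exposed library, and fell by 2.83 on the log2 scale at day 30. FGG fell at 4 of the time points, at each of which the exposed libraries held at most 3 counts, so that the day 21 difference is known only to be at least 4.96-fold, and it was not past both thresholds at days 15 and 30 after withdrawal. OSMR was higher at day 6 of exposure, and PIM1 was lower at days 15 and 21. CCND1, with the most CPM of the list, had log2 fold changes of 0.31 and -0.27 at day 21 and at day 30 after withdrawal. IL6 and the fibrinogen genes had been seen in earlier results of these data.

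**Figure D4:**
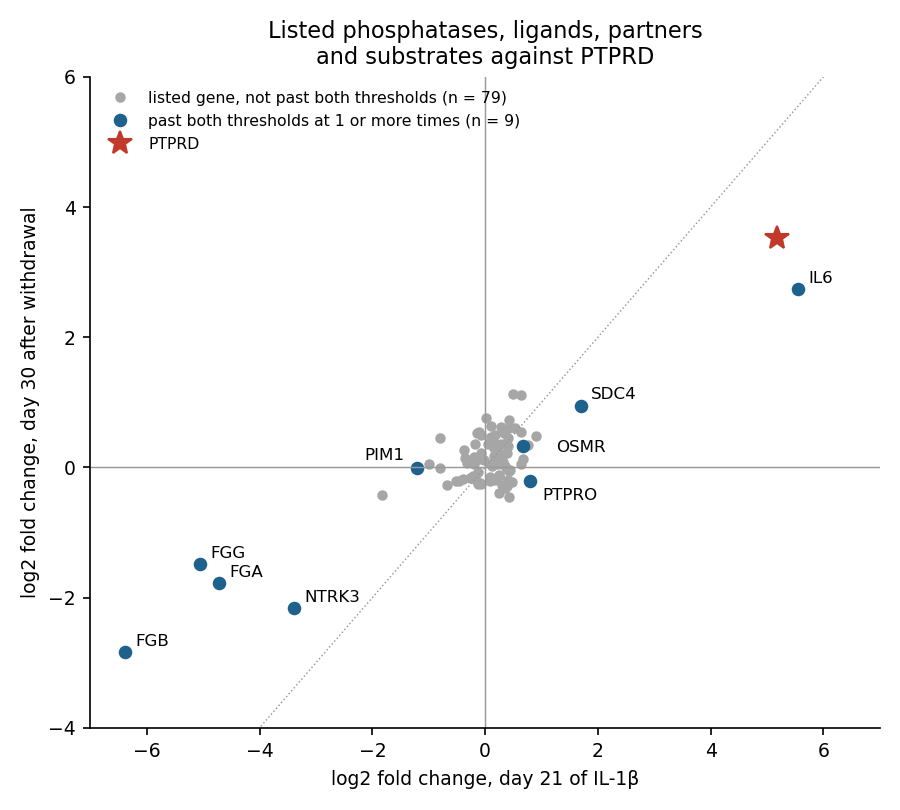
Log2 fold change of the 88 listed genes at day 21 of IL-1β (horizontal) and at day 30 after withdrawal (vertical), with PTPRD as a star. Blue points are the 9 genes called at 1 or more time points, grey points the other 79, and the dotted line marks equal values at both times. IL6 (5.55 and 2.74) is the listed gene closest to PTPRD (5.17 and 3.53), and NTRK3, FGA, FGB and FGG lie on the opposite side, where the fitted values of FGB and FGG at day 21 rest on at most 3 counts per exposed library.

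PTPRD is one of the longest human genes, and 158 annotated genes lie within 5 Mb of it or inside it, of which 50 were tested. At 1 or more time points 4 of the 50 (8%) were past both thresholds, against 6.32% of all genes tested, with 2 higher and 2 lower at day 21. CD274 and PDCD1LG2, which encode the immune checkpoint ligands PD-L1 and PD-L2, were past both thresholds at 4 and 5 time points, and at 4 of the latter the untreated libraries held at most 3 counts of PDCD1LG2 each. CD274 had 3.53 ± 0.941 against 0.923 ± 0.267 CPM at day 21 and 1.51 ± 0.686 against 1.03 ± 0.905 CPM at day 30 after withdrawal (SD, n = 3 each), when it was no longer past the thresholds. GLDC and INSL4 were lower, by log2 fold changes of -2.20 and -3.05 at day 21 and -1.08 and -1.69 at day 30 after withdrawal. The tested gene nearest to PTPRD without overlapping it, DMAC1, had log2 fold changes of -0.21 and -0.07 at the same times, and RPL4P5, the most abundant neighbour, -0.19 and -0.31. Within introns of PTPRD lie 11 genes that share no exonic base with it, so they could not take its exonic reads, and 3 of them were tested and not called.

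Leaving aside OSMR and PIM1, which were named after their values were seen, the named genes of the lists and of the neighbourhood were past both thresholds in 54 cases, each a gene at a time point. Of these 54 cases 25, 35 and 48 were left without replicate 1, 2 and 3, 43 without the 11 libraries rich in mitochondrial reads and 28 with each time point fitted alone. The number of listed genes past both thresholds at day 30 after withdrawal was 4, and it was 1 without replicate 1 and 0 without replicate 2, while over all genes tested the number went from 172 to 6 and 25. At day 15 after withdrawal it was 4, and 1 without replicate 1 and also 1 without replicate 2, while over all genes it went from 183 to 15 and 24.

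**Figure D5:**
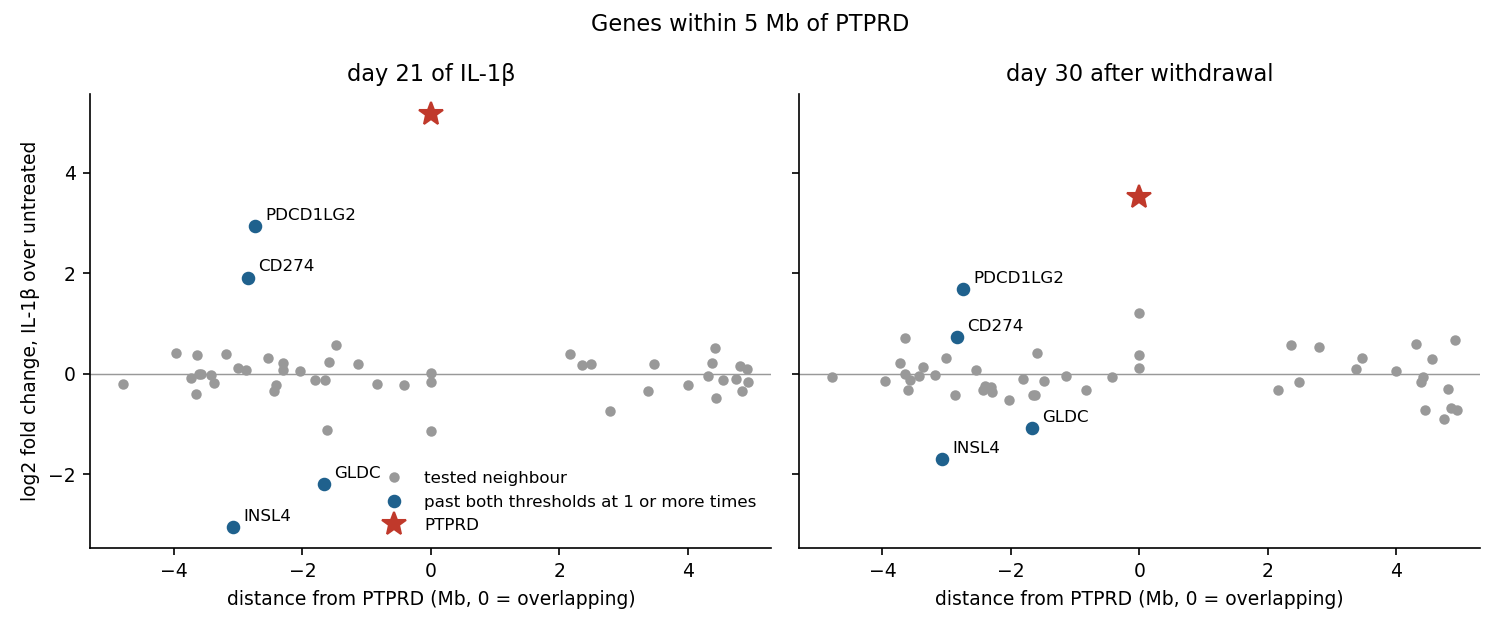
Log2 fold change at day 21 of IL-1β (left) and at day 30 after withdrawal (right) for the 50 tested genes within 5 Mb of PTPRD, by their distance from it in Mb. Blue points are the 4 genes called at 1 or more time points and the star is PTPRD. The 4 genes lie on the same side of PTPRD, and DMAC1, the nearest tested gene that does not overlap PTPRD, is at -0.21 at day 21.

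The genes whose log2 CPM over the 36 libraries was most like that of PTPRD were FSTL1, DSE, TSPAN7, SNX18, ITGB3, AOX1, KRT87P and GBP1, with Pearson correlations of 0.952, 0.9503, 0.941, 0.932, 0.923, 0.913, 0.913 and 0.913. The libraries share their treatment and their time in culture, so that the correlations describe the pattern and are given with no test. Within the 18 exposed libraries alone, the correlation was 0.790 for FSTL1, 0.754 for DSE and 0.765 for ITGB3, and within the 18 untreated libraries, where PTPRD had at most 10 counts, it was -0.06, 0.39 and -0.03. The other genes named were lower in the exposed libraries, at 0.692 for AOX1, 0.658 for SNX18, 0.597 for TSPAN7, 0.551 for GBP1 and 0.387 for KRT87P. In the untreated libraries they ran from -0.07 for KRT87P to 0.43 for AOX1. FSTL1, which encodes a secreted follistatin-like glycoprotein, had 106 against 41.3 CPM at day 21 and 68.2 against 43.2 CPM at day 30 after withdrawal. DSE, an enzyme of dermatan sulfate synthesis, had 55.9 against 8.46 CPM and 19.5 against 8.75 CPM. The most opposite patterns were those of SYT6, CTDSPL and CEACAM6, at -0.943, -0.933 and -0.929. For PTPRF and PTPRS the correlation with PTPRD was 0.550 and -0.186.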

How the data were processed

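RNA of 36 A549 libraries, 3 per group, was analysed. The authors deposited raw counts per Ensembl gene for each library. The labels name a stranded mRNA kit, and the study's methods single-end reads aligned to GRCh37. The submitters' processing notes name TopHat2 2.0.14, Bowtie2 2.2.5, HTSeq 0.6.1 and bcl2fastq 2.17. The strand setting of the counting and the annotation release are not given in the sources used here. Groups, days and replicate numbers were taken from the sample labels. The 5 summary lines per table were left out of library sizes (reads on no gene 8.48% to 18.6%, ambiguous reads 2.62% to 4.18%). Identifiers were matched to GENCODE v44lift37 for 55665 of 63677 genes, and PTPN20 and PECAM1 found no match. Genes with enough counts by filterByExpr were kept, which left 19180 of the 39471 with a count. Counts were scaled by TMM and fitted with edgeR 4.0.16's quasi-likelihood model (R 4.3.3), with the 12 groups as terms and 24 residual degrees of freedom, and Benjamini-Hochberg adjustment ran over all genes tested. On simulated counts for day 21, 176 of 200 genes shifted by 2 on the log2 scale were recovered, with 5 false calls among 18964 genes. The shifted genes were drawn without those of lowest mean CPM, and libraries were simulated as independent. These rates need not hold for the real libraries. CPM used the same scaling. Likeness to PTPRD was the Pearson correlation of log2 CPM with a prior count of 2. Groups whose libraries all held 3 or fewer counts of a gene were treated as at its floor. Intervals of ratios and floors cover counting error only. Ratio tests were exact permutations in Python 3.11.15 with numpy 2.4.6. The alternatives were DESeq2 1.42.0's size factors and Wald test, total counts, other filters, separate fits, the replicate block, each replicate left out, and the high mitochondrial share as a covariate or a reason to leave libraries out. The members and the gene lists were chosen with earlier results of these data known. From each list the text names the 4 genes with the largest day 21 change among those past both thresholds, and the gene with the most CPM. OSMR, PIM1, IL1RAP and DMAC1 are named besides, chosen after their values were seen. No 2 libraries held the same counts.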

Additional observations from a re-analysis of the deposited data

Results flagged for a closer look

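The responses of 2 listed genes, both fibrinogen chains of the IL-6 and STAT3 list, differed between the time points when tested against each other. For FGB the log2 fold change at day 30 after withdrawal was 3.55 higher than at day 21 of IL-1β (-2.83 against -6.39, standard error of the difference 0.90, adjusted p = 0.0249, edgeR). For FGA the difference was 2.95 (-1.78 against -4.72, standard error 0.65, adjusted p = 0.0197, same test). Of all genes tested, 0.73% differed in this comparison at an adjusted p under 0.05. The fitted value of FGB at day 21 rests on exposed libraries with at most 3 counts. PTPRF and PTPRS were not among the genes that differed (0.03 and 0.47, adjusted p = 0.992 and 0.955, same test), and groups of 3 libraries are too small for a test of single outlying samples.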

How the results depend on the processing

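The response of PTPRD kept its direction at all 6 time points in every alternative that gave a value. This follows closely from its choice for calls at all 6 and from group ranges that do not overlap, so it is no check of the response. With at least 10 counts required in every library PTPRD could not be tested. Leaving out the libraries of high mitochondrial share moved its log2 fold change to 5.002 and 6.42 at days 6 and 15 after withdrawal and the share of its peak kept to 95.6%, 123% and 72.5% at days 6, 15 and 30. Scaling by total counts moved the last share to 70.1%, and leaving out each replicate gave 63.9% to 68.6% there, 65.5% to 83.2% at day 6 and 73.1% to 108% at day 15, with log2 fold changes of 3.67 to 5.60 at day 15. Total counts also moved the median log2 fold change of all genes at day 15 after withdrawal from 0.02 to 0.21. PTPRF passed an adjusted p under 0.05 with each time point fitted alone at days 6 (0.67) and 21 (0.49), without the high mitochondrial libraries at days 6, 15 and 21 (0.62, 0.63 and 0.53), and with the covariate at day 21 (0.65). PTPRS passed it with the covariate at day 6 (-0.54). The cause was not tested. Signs turned where no fit called a difference. The PTPRF response at day 30 after withdrawal minus day 21 was 0.03 and became -0.22 without the high mitochondrial libraries, -0.081 with the covariate and -0.19 to 0.21 with each replicate left out. PTPRS at day 6 after withdrawal became -0.058 with the covariate, and at day 15 it became -0.00244 without the high mitochondrial libraries, -0.033 with the covariate and -0.041 to 0.21 with each replicate left out. In untreated cells, day 30 minus day 6 ran from -0.50 to 0.16 for PTPRD and from -0.40 to 0.078 for PTPRS with each replicate left out, and was 0.076 for PTPRS without the high mitochondrial libraries. The log2 difference of the PTPRF to PTPRS ratio after withdrawal was 0.33 without the high mitochondrial libraries, against 0.38 with all. Days 6 and 15 then kept 1 untreated library each and 54 arrangements were left, so no test is given.

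The listed genes past both thresholds numbered 8, 8, 7, 6, 4 and 4 at the 6 time points in order. With at least 10 counts in every library they were 5, 5, 3, 3, 2 and 2, with fewer genes tested. By adjusted p alone they were 13, 18, 13 and 10 at the first 4. Fitted alone, the times after withdrawal gave 0, 0 and 0, and 1, 2 and 0 over all genes tested. With each replicate left out the number was 5 to 10 at day 15 of exposure and 2 to 5, 1 to 5 and 0 to 5 after withdrawal, and without the high mitochondrial libraries it was 1 at day 15 after withdrawal. Of the 8 genes most like PTPRD, 5 were among the 8 most alike over the 12 group means.

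Uncalled values of single listed genes also changed sign. With total counts PTPN11 was 0.12 and 0.013 at days 15 and 30 after withdrawal and CCND1 0.12 at day 15. Without the high mitochondrial libraries PTPRO and PTPN11 were 0.069 and 0.022 at day 30 after withdrawal, AGRN was 0.082 at day 21 and -0.063 and -0.19 at days 6 and 30 after withdrawal, EZR was 0.042 at day 6 after withdrawal and RPL4P5 was -0.18 at day 15 of exposure. With the covariate AGRN was -0.26 and 0.51 at days 6 and 21 of exposure and -0.36 and -0.020 at days 6 and 15 after withdrawal, and RPL4P5 was 0.024 and -0.050 at days 6 and 15 of exposure. With each replicate left out, PTPRO ran from -0.24 to 0.38 and from -0.44 to 0.062 at days 6 and 30 after withdrawal, PTPN11 from -0.22 to 0.046 and from -0.24 to 0.010 at days 15 and 30, AGRN from -0.17 to 0.74 and from -0.21 to 0.40 at days 6 and 30, EZR from -0.33 to 0.074 at day 6, and RPL4P5 from -0.095 to 0.43 at day 15 of exposure.

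Replicates with the same number deviated together (correlation over 0.1) in 14 of 18 pairs, with correlations from -0.34 to 0.72. Replicates with different numbers were not compared, so whether the numbers mark linked cultures was not tested. The main fits took the numbers as names. Under a block on replicate number the log2 fold change of PTPRD at day 30 after withdrawal was 3.54, PTPRF and PTPRS stayed on the same side of the threshold at all 6 time points, and the genes named by rule from the lists and the neighbourhood kept 54 of their 54 calls. The exact test of the ratio over same-numbered pairs gave p = 0.00391, the smallest it allows, in both phases. It also takes the days as independent. At 9116032 to 23570026 counts per library the untreated level of PTPRD, 1 to 10 counts, limits every fold change against it.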
